A study of Mus musculus with 9 samples.

Results

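Hox, Meis, Pbx, Irx and Tbx genes encode DNA-binding proteins that set the identity of body regions in the embryo, and 29 of them were present in a table of 16299 genes measured in melanocytes from mouse epidermis. The members were chosen by symbol: every row named as a Hox cluster gene, a numbered Tbx gene, Meis1 to Meis3, a Pbx gene, a Pitx gene or an Irx gene. Of 68 symbols of that form in the mouse annotation, 29 were in the table, and the other 39 were not analysed here. The 29 were 12 of 39 Hox genes, 3 of 3 Meis genes, 4 of 4 Pbx genes, 4 of 6 Irx genes and 6 of 13 Tbx genes, with none of the 3 Pitx genes. By cluster, the Hox members were 2 of 11 Hoxa genes, 6 of 10 Hoxb genes, 1 of 9 Hoxc genes and 3 of 9 Hoxd genes. All 29 had at least 10 counts in at least 3 libraries.

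Melanocytes, the pigment cells of skin, were sorted by flow cytometry and profiled by RNA sequencing with 3 libraries in each of 3 groups. The knockout back group came from back epidermis of Spry1flox/flox k14-Cre-ERT2 mice. The knockout tail group came from tail epidermis of the same genotype, and the control tail group from tail epidermis of Spry1flox/flox mice without Cre. All groups therefore carry the floxed Spry1 allele, a gene whose protein dampens growth factor signalling through receptor tyrosine kinases. The Cre is driven by the keratin 14 promoter, which is active in basal keratinocytes and not in melanocytes, and its ERT2 domain makes it dependent on tamoxifen. The age of the mice is not given in the sources used here. No control back group was analysed here, so the comparison of back with control tail mixes body site with genotype, and only back against knockout tail holds the genotype constant. The labels do not say that the libraries of a group came from separate animals, so the p-values reflect only how far these samples scatter, and that scatter may be technical.

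Hox genes lie in 4 clusters, and their numbers, called paralogue groups, follow their order along the chromosome: low numbers are active towards the head of the embryo and high numbers towards the tail. Hox proteins bind DNA together with Pbx and Meis proteins, which belong to the TALE class of homeodomain proteins. Irx genes encode a further TALE family, and Tbx genes encode factors with a T-box DNA-binding domain. Adult skin cells, dermal fibroblasts above all, are known to keep Hox patterns that reflect their site, and Tbx2 is known as a gene of the melanocyte lineage.

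Recovered totals were 52.4, 47.4 and 56.7 M (mega) counts in the back libraries, 64.8, 62.8 and 45.3 M in knockout tail and 65.7, 67.2 and 65.7 M in control tail. The back libraries were sparse: 28.4%, 37.6% and 9% of all genes stood at 0 counts in back libraries 1 to 3, against 10%, 10.7% and 5.2% in knockout tail and 5.9%, 6.5% and 8.7% in control tail. Spry1 itself had 2120, 0 and 761 counts in back, 4446, 2082 and 508 in knockout tail and 1915, 1298 and 1587 in control tail, so in the sorted cells it was not uniformly lower in the knockout groups. The melanocyte genes Pmel, Dct and Tyrp1 had deposited log2 levels between 19.61 and 20.95 in all 9 libraries. Some melanocyte genes differed between groups. A summed level per kilobase was taken over the 9 of 12 listed genes with recovered counts and an annotated length. It was 534367 to 785357 in back, 430520 to 523224 in knockout tail and 385222 to 475339 in control tail. Mlana was higher in back against each tail group and was the only listed melanocyte gene that passed against knockout tail. Kit and Trpm1 were higher in back against control tail, where site and genotype are mixed. Mitf passed as higher only against the mean of both tail groups, and Tyrp1 was higher in knockout than in control tail. Basal keratinocyte markers were also read in every library. Their summed level, in normalised counts per kilobase of exon over 8 genes, was 21026 to 100489 in back, 6221 to 173500 in knockout tail and 20696 to 55016 in control tail. Differentiated keratinocyte markers (8 genes) summed to 30816, 170356 and 36418 in back, 15372, 12218 and 85244 in knockout tail and 41760, 110911 and 34007 in control tail. Back library 2 was the highest of all 9 for these markers and the lowest of its group for the basal ones. Hair follicle markers (5 of 6 listed genes) summed to 5640 to 45218 in back, 6764 to 40403 in knockout tail and 16692 to 59744 in control tail. No gene of these lists passed. Langerhans and myeloid markers were summed over 4 of 6 listed genes. The sum was 1174, 7101 and 8773 in back, 1013, 470 and 4012 in knockout tail and 570, 1145 and 414 in control tail. Back library 1 lay close to the highest control library, and the sum was not tested. Of the 4 genes only Cd74 passed, higher in back against control tail, at 2.92 (SE 0.59, limma adjusted p 0.047), and against both tail groups. The part of these cell types in the differences of the Hox, Meis, Pbx, Irx and Tbx genes was not tested. Sex-linked transcripts differed among libraries: the Y-linked gene Eif2s3y had 2543 to 3922 counts in back, 4890, 5677 and 0 in knockout tail and 0 to 154 in control tail. Xist, made from an inactive X chromosome, had 1266 to 2699 counts in back, 5, 19 and 6364 in knockout tail and 1711 to 5354 in control tail. High counts of both transcripts were thus found in every back library and in no tail library. The labels give no sex, and its part in the comparisons between groups was not tested. Back library 3 and knockout tail library 3 formed a set of 2 whose mean had been matched, gene by gene, to that of the other 7 libraries before deposit. The tests therefore carry this library set as a term.

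The 4 Hox genes that were at 0 counts in every back library and above 0 in every control library included the neighbours Hoxd8 and Hoxd9. For that reason the stretch before each start is shown, from RefSeq on GRCm38.p6, plus strand, 5′ to 3′, without bases that lie in an annotated exon. The Hoxd8 stretch is chr2:74704365-74704614 and the Hoxd9 stretch is chr2:74697587-74697726.
Hoxd8: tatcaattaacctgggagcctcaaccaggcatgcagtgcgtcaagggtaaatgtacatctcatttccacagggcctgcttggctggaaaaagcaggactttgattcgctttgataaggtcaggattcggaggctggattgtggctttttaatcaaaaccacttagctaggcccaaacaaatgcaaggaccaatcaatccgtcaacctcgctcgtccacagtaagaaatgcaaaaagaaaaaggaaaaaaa
Hoxd9: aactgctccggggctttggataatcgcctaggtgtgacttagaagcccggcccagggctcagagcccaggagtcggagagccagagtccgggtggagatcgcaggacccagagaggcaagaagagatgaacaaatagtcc
DNA words linked to these protein classes were searched on both strands of the 250 bases before each start, and any found would be in capitals: TGACAG, bound by Meis proteins, TGATNNAT, bound by Pbx with Hox, and TAATTA, a homeodomain core. None was found in either window, and none of the words overlapped another there. Among 32851 RefSeq promoters of that length, 15.9% held TGACAG, 7.68% held TGATNNAT and 4.84% held TAATTA. The full windows had a GC content of 44.4% for Hoxd8 and 65.2% for Hoxd9, against a median of 52.4% over all promoters. Of the 29 members, 17 had an entry in the promoter table.

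The highest members by level per length were the Irx genes Irx5 and Irx3 and the T-box gene Tbx2. Over all 9 libraries the mean level was 1223 normalised counts per kilobase of exon for Irx5, 885 for Irx3 and 573 for Tbx2. Hoxb7 followed at 432, Meis3 at 304, Tbx1 at 254, Tbx4 at 222 and Hoxb9 at 186, and the lowest member was Tbx3 at 6.74. The rank of both Hoxb genes came from the back libraries: Hoxb7 averaged 1163 in back, 76.6 in knockout tail and 57.0 in control tail, and Hoxb9 averaged 529, 27.2 and 3.11 in the same groups. Only 5 of the 29 members were above 0 in all 9 libraries, namely Pbx2, Pbx3, Irx3, Irx5 and Tbx2, while 51.6% of all genes were. Members at 0 counts numbered 16, 16 and 9 in the back libraries, 13, 12 and 2 in knockout tail and 7, 2 and 5 in control tail.

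**Figure D1:**
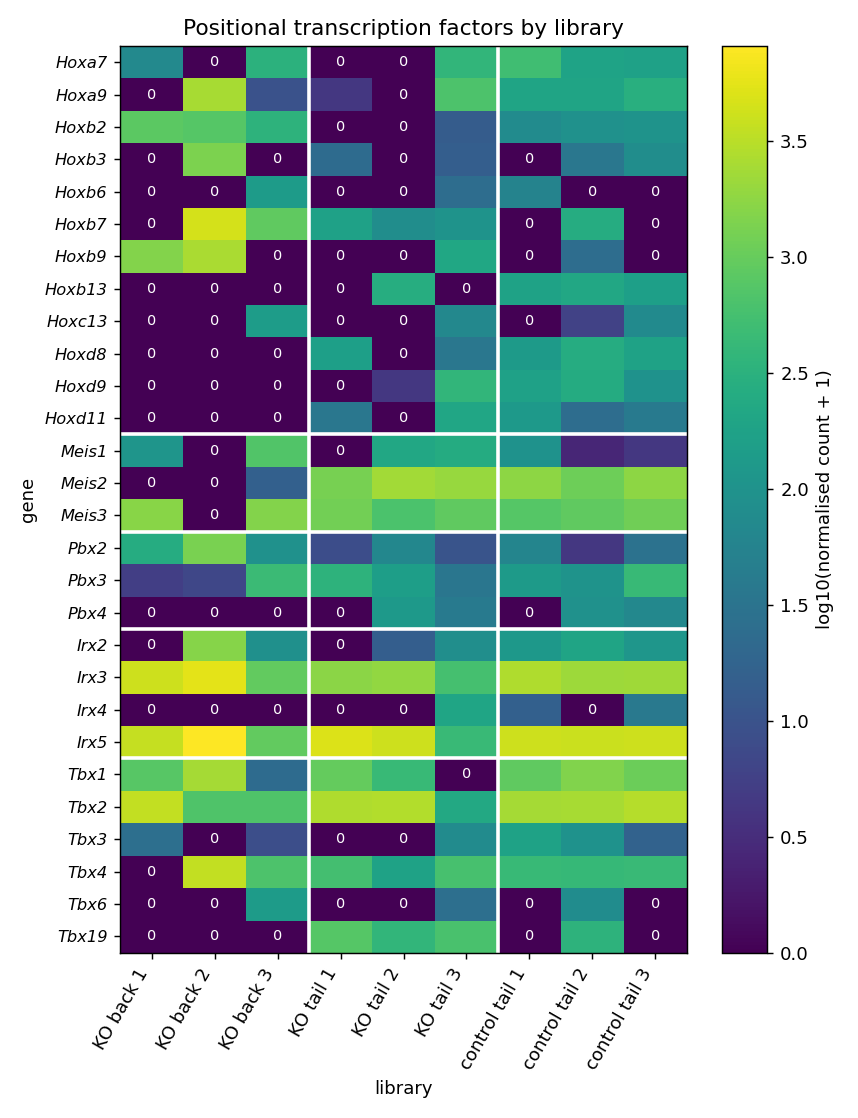
Normalised counts of 28 of the 29 members in each library, as log10 of the count plus 1, with libraries in columns (KO back, KO tail, control tail) and genes in rows by family. White zeros mark genes with 0 counts; Meis2 is dark in the 3 back columns, and Irx3, Irx5 and Tbx2 are above 0 in every column.

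Meis2 fell in back melanocytes against both tail groups, and Hoxb2 rose in back against knockout tail. In the comparison of back with knockout tail, 2 of the 29 members passed an adjusted p of 0.05 (limma), Hoxb2 higher and Meis2 lower, while 0.436% of all 16299 genes passed (0.141% higher and 0.294% lower). In back against control tail 1 member passed, Meis2, lower, beside 3.34% of all genes (1.05% higher and 2.29% lower). Against the mean of both tail groups the 2 members were again Hoxb2 and Meis2, beside 5.7% of all genes (1.62% higher and 4.08% lower). The comparisons share the back libraries, so they are not separate evidence. At an unadjusted p under 0.05 there were 5 members against knockout tail, beside 18.2% of all genes, 10 against control tail, beside 24.6%, and 10 against both tail groups, beside 26.6%. Over the 29 members the median log2 difference was 0.15 in back against knockout tail, with 16 positive, where the median of all genes was -0.18. In back against control tail it was -0.27, with 11 positive, where the median of all genes was -0.26. Differences are on the deposited log2 scale, on which genes with low counts show too small a change.

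Meis2 encodes a TALE homeodomain protein that binds DNA with Hox and Pbx partners, and lies on the minus strand at chr2:115863064-116065839 (GRCm38). Its normalised counts were 0, 0 and 14.7 in the back libraries, 1301, 2373 and 2018 in knockout tail and 1753, 1120 and 1735 in control tail. All 3 back libraries lay far below all 6 tail libraries, and the tail groups overlapped. The 14.7 was in back library 3, the one with only 9% of all genes at 0. Of all genes, 6.39% had every back library below every tail library, and Meis2 was the only member among them. The mean was 4.90 ± 8.49 in back, against 1897 ± 546 in knockout tail and 1536 ± 360 in control tail (SD, n = 3 each), so that the tail means were 387 and 314 times the back mean. The log2 difference was -3.09 (SE 0.37) in back against knockout tail, with a limma adjusted p of 0.026. It was -2.94 (SE 0.40) in back against control tail, with a limma adjusted p of 0.017. In bulk RNA of sorted cells, fewer cells that make a transcript and less of it in each cell cannot be told apart.

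Hoxb2, a paralogue known for patterning the hindbrain, lies on the plus strand at chr11:96350525-96354012 and showed the opposite order. Its normalised counts were 827, 766 and 339 in back, 0, 0 and 12.7 in knockout tail and 75.7, 92.7 and 103 in control tail. Every back library lay above every tail library, as for Pbx2, while 3.28% of all genes had that order. The mean was 644 ± 266 in back, 4.24 ± 7.34 in knockout tail and 90.4 ± 13.7 in control tail (SD, n = 3 each), which made the back mean 7.12 times that of control tail. The log2 difference was 1.96 (SE 0.29) in back against knockout tail, with a limma adjusted p of 0.043. Against control tail it was 1.29 (SE 0.30), and the limma adjusted p of 0.058 missed the threshold. Against the mean of both tail groups it was 1.62 (SE 0.25) with a limma adjusted p of 0.024. The antisense gene Hoxb3os overlaps Hoxb2 and had 164, 6 and 107 counts in back, 0 in each knockout tail library and 67, 63 and 0 in control tail. The strand setting of the counting is not given in the sources used here, so reads of Hoxb2 and Hoxb3os cannot be told apart.

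**Figure D2:**
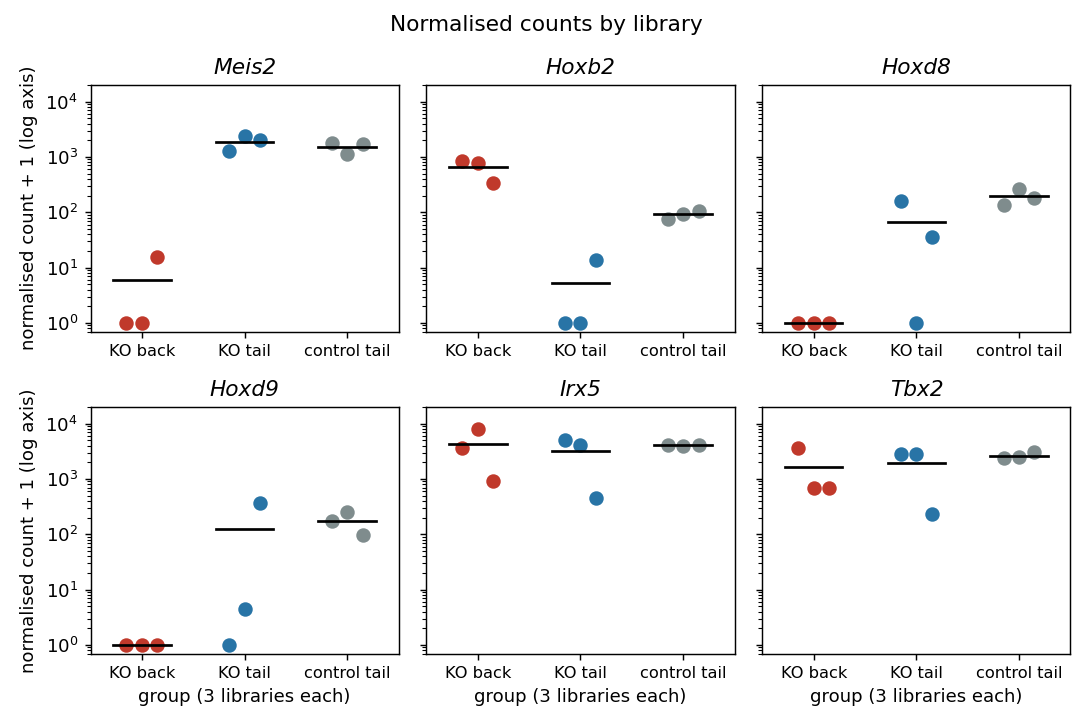
Normalised counts plus 1, on a log axis, of 6 members in KO back, KO tail and control tail, with 1 point per library and a line at the group mean. Meis2 points of the back lie at or near the bottom, Hoxb2 points of the back lie above all tail points, and Hoxd8 and Hoxd9 are at 0 in all 3 back libraries.

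The other Hoxb genes did not share a pattern with Hoxb2, and none passed the test with all 9 libraries. Hoxb9, which takes part in patterning of the trunk, had 1505, 2579 and 0 normalised counts in back, 0, 0 and 210 in knockout tail and 0, 24 and 0 in control tail. High values in 2 back libraries and none in the third gave a log2 difference of 1.77 (SE 0.81) against knockout tail, with a limma adjusted p of 0.30. The value turned on the libraries: it was -1.28 without back libraries 1 and 2, a setting that sets back library 3 against knockout tail library 3 alone. It was 3.29 with a limma adjusted p of 0.014 without back library 3, or likewise without knockout tail library 3. Leaving out either of these left the other alone in its set, where the set term took it up. Both settings thus rest on the same libraries and are not separate checks. Against control tail the difference of 2.38 (limma adjusted p 0.15) became 3.14 and passed when either of those libraries was left out. Hoxb7 had 0, 4498 and 889 in back, 171, 81.9 and 102 in knockout tail and 0, 264 and 0 in control tail. The back libraries of Hoxb7 spanned both the lowest and the highest value of the series, and the log2 difference of 1.28 did not pass the limma test, with an adjusted p of 0.53. Hoxb3 was read mainly in 1 back library, with 0, 1388 and 0 in back, 22.6, 0 and 13.9 in knockout tail and 0, 34.8 and 82.6 in control tail. Hoxb6 was at 0 in 6 of the 9 libraries, with 141 in back library 3, 24.3 in knockout tail library 3 and 55.2 in control tail library 1.

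Hoxb13, Hoxd8, Hoxd9 and Hoxd11 were at 0 counts in all 3 back libraries and above 0 in all 3 control tail libraries. Of all genes, 2.73% had that pattern. Including Pbx4, Irx4 and Tbx19, 7 of 29 members were at 0 in every back library, beside 5.52% of all genes. With Meis2, 5 members had every back library below every control tail library, beside 15.6% of all genes. None of the 4 Hox genes passed the adjusted threshold with all 9 libraries on the deposited scale, and the knockout tail libraries of each included at least 1 at 0. A count of 0 allows up to 3 counts, or 2.94 to 3.51 normalised counts in the back libraries, a limit that covers counting error only.

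Hoxb13, the most caudal member of its cluster, had 0 counts in back, 0, 272 and 0 normalised counts in knockout tail and 180, 217 and 159 in control tail. Taking the limit of 3 counts per library, the back mean was at least 28.1-fold lower than that of knockout tail and at least 57.5-fold lower than that of control tail. The fitted log2 difference was -0.48 (SE 0.35, limma adjusted p 0.50) against knockout tail and -1.08 (SE 0.37, limma adjusted p 0.13) against control tail. The knockout tail mean rested on a single library. Without that library Hoxb13 passed as lower in back against control tail, and it passed in no other setting. The library is in neither of those groups and enters that fit only through the set term and the shared spread. Hoxd8 had 0 counts in back, 161, 0 and 34.7 normalised counts in knockout tail and 135, 266 and 176 in control tail. Its back mean was at least 20.3-fold lower than that of knockout tail and at least 59.6-fold lower than that of control tail, with a log2 difference of -1.20 (SE 0.30, limma adjusted p 0.066) against control tail. Hoxd8 overlaps the antisense gene Hoxd3os1, which also had 0 counts in every back library and 68 to 316 in control tail, so the reads of this pair cannot be told apart.

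Hoxd9 had 0 counts in back, 0, 3.38 and 368 normalised counts in knockout tail and 170, 257 and 97.1 in control tail. Its back mean was at least 38.3-fold lower than that of knockout tail and at least 54.1-fold lower than that of control tail. The knockout tail mean rested on library 3, since the other libraries of that group were at or near the limit of 3 counts. The log2 difference against control tail was -1.41 (SE 0.35) with a limma adjusted p of 0.067, the largest downward one of the Hox genes. It passed on log2 of the normalised count plus 1 (limma adjusted p 0.048), and at -1.14 without back library 3 (0.025) or without knockout tail library 3 (0.019). Leaving out either of these left the other alone in its set, where the set term took it up, so these are not separate checks. Against knockout tail, with genotype constant, the log2 difference was -0.61 (SE 0.33, limma adjusted p 0.38). That difference was -0.08 without either of these libraries, and it passed in no setting. Hoxd11 had 0 counts in back, 34.7, 0 and 208 in knockout tail and 130, 24 and 38.9 in control tail. The log2 difference of Hoxd11 against control tail was -0.84 (SE 0.29, limma adjusted p 0.14). In both genes knockout tail library 3 was the highest of its group. That library and back library 3 also had fewer genes at 0 than the others of their groups, and the part of library sparseness in these zeros was not tested.

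The members of the Hoxa and Hoxc clusters overlapped between the groups. Hoxa7, a thoracic paralogue, had 67.8, 0 and 319 normalised counts in back, 0, 0 and 370 in knockout tail and 521, 185 and 172 in control tail. Hoxa9 had 0, 2493 and 8.82 in back, 3.23, 0 and 667 in knockout tail and 194, 190 and 296 in control tail. A single library gave most of the Hoxa9 mean in each knockout group, and the control libraries lay close together. Hoxc13, which is known for its part in hair and nail formation, had 0, 0 and 142 in back, 0, 0 and 65.9 in knockout tail and 0, 4.96 and 73.7 in control tail. The third library of each group was the one with the highest Hoxc13 count.

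Ordered by paralogue number, the Hox genes did not split cleanly into a positive and a negative set. The median log2 difference of back against knockout tail was 0.46 over the 6 genes of groups 2 to 8, of which 5 were positive, and -0.18 over the 6 genes of groups 9 to 13, of which 3 were positive. The median of all genes in that comparison was also -0.18. In back against control tail the medians were 0.30, with 3 of 6 positive, and -0.56, with 1 of 6 positive, where the median of all genes was -0.26. Across the 12 genes Pearson's r between paralogue number and log2 difference was -0.57 against knockout tail and -0.42 against control tail. These are descriptions over genes of linked clusters that share the same 9 libraries. Among the high numbers Hoxa9, Hoxb9 and Hoxc13 were positive against knockout tail, at 0.51, 1.77 and 0.11, and only Hoxb9 was also positive against control tail. Among the low numbers Hoxd8 was negative in both comparisons, and Hoxa7 and Hoxb6 were negative against control tail, at -1.14 and -0.12. The share of the summed Hox level per kilobase that came from groups 9 to 13 was 69.2%, 29.5% and 6.5% in the back libraries, 4.8%, 70.2% and 66.5% in knockout tail and 44.7%, 42.3% and 54.8% in control tail. The knockout groups each covered nearly the whole range of shares, and the control libraries lay inside it. One gene often carried the sum: Hoxb9 held 69.2% of it in the first back library, and Hoxb13 held 69.3% in the second knockout tail library.

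**Figure D3:**
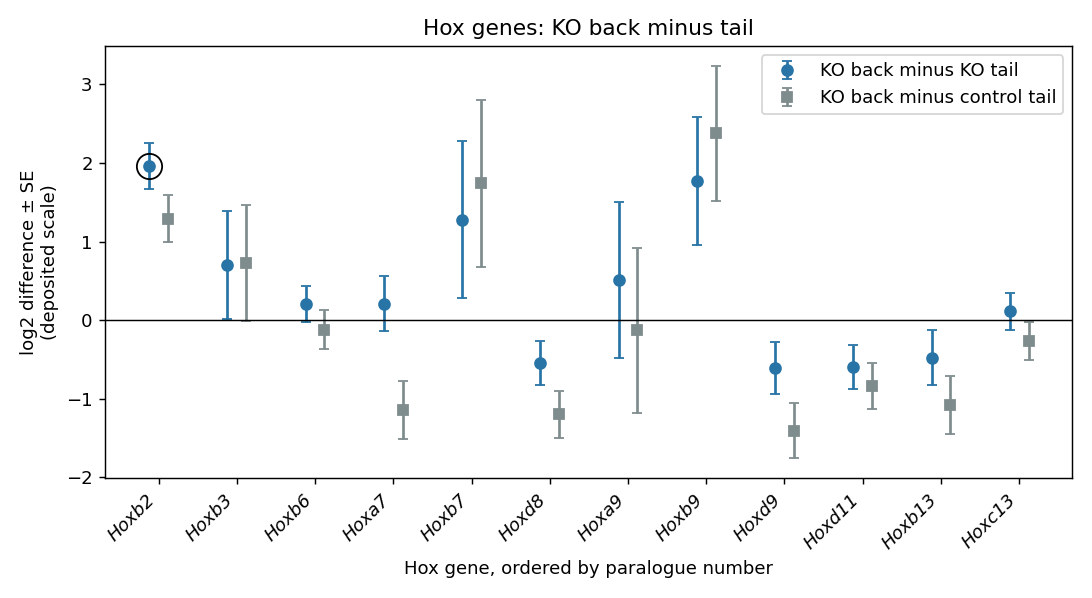
Log2 difference on the deposited scale, with its SE, of KO back minus KO tail (circles) and KO back minus control tail (squares) for the 12 Hox genes, ordered by paralogue number. The ringed point, Hoxb2 against KO tail at 1.96, is the only one with an adjusted p under 0.05, and Hoxd8, Hoxd9, Hoxd11 and Hoxb13 lie below 0 in both comparisons.

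Apart from Meis2, none of the Meis and Pbx genes described here passed the test. Meis1, a partner of posterior Hox proteins, had 108, 0 and 708 normalised counts in back, 0, 219 and 252 in knockout tail and 97.8, 1.65 and 3.24 in control tail. Meis3 had 1634, 0 and 1538 in back, 1176, 643 and 902 in knockout tail and 756, 913 and 1135 in control tail. Meis3 was thus high in all libraries except the second back library, where it was at 0, and its level per kilobase averaged 333 ± 289 in back, 286 ± 84.0 in knockout tail and 294 ± 60.1 in control tail (SD, n = 3 each). Pbx2, a broadly expressed Hox cofactor, had 263, 1311 and 93.1 in back, 7.27, 64.2 and 9.25 in knockout tail and 59.9, 3.31 and 28.3 in control tail. The back libraries of Pbx2 all lay above the tail libraries, but the log2 difference of 1.29 (SE 0.41) against knockout tail had a limma adjusted p of 0.17. Against control tail Pbx2 passed only with quantile normalisation (limma adjusted p 0.048). Pbx2 shares a stretch of the same strand with Gpsm3, which had 260 to 822 counts in back, 380 to 572 in knockout tail and 313 to 1503 in control tail. Pbx3 had 4.31, 5.85 and 457 in back, 334, 154 and 33.5 in knockout tail and 134, 102 and 427 in control tail, and the groups overlapped. Pbx4 was at 0 in all back libraries and in 1 library of each tail group, with at most 124 in the others.

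No Irx or Tbx gene passed the test in any comparison, and Irx3, Irx5 and Tbx2 were read in every library. Irx5, known in limb and heart patterning, had 3646, 8134 and 923 normalised counts in back, 5094, 4026 and 451 in knockout tail and 4109, 3895 and 4134 in control tail. Irx3, its neighbour on chromosome 8, had 4157, 5583 and 933 in back, 1707, 1861 and 569 in knockout tail and 2757, 2197 and 2234 in control tail. In both genes back library 3 and knockout tail library 3, those of the smaller set, were the lowest of their groups. The log2 difference of Irx3 in back against knockout tail was 0.98 (SE 0.35, limma adjusted p 0.20), and that of Irx5 was 0.38 (SE 0.37, limma adjusted p 0.63). Irx2 had 0, 1604 and 91.1 in back, 0, 13.5 and 84.4 in knockout tail and 120, 194 and 113 in control tail. Irx4, known for its role in the heart ventricle, was at 0 in all back libraries and above 0 in only 3 tail libraries, with 199 in knockout tail and 15 and 37.2 in control tail.

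Tbx2, a repressor known to oppose senescence in melanocytic cells, had 3566, 686 and 690 normalised counts in back, 2785, 2847 and 229 in knockout tail and 2405, 2477 and 3007 in control tail. Its log2 difference was -0.13 (SE 0.56, limma adjusted p 0.92) in back against knockout tail. Tbx3, its close relative, was much lower per length, with 25.8, 0 and 7.84 in back, 0, 0 and 75.2 in knockout tail and 181, 96 and 16.2 in control tail. Tbx4, known for its role in the hindlimb, had 0, 3514 and 658 in back, 555, 180 and 588 in knockout tail and 434, 413 and 447 in control tail. The Tbx4 controls lay within a narrow range that the back libraries straddled. Tbx1 had 790, 2403 and 22.5 in back, 962, 436 and 0 in knockout tail and 889, 1467 and 1074 in control tail, again lowest in the third libraries of the knockout groups. Tbx6, a factor of early mesoderm, was at 0 in 6 of 9 libraries, with 138 in back library 3, 25.4 in knockout tail library 3 and 79.4 in control tail library 2.

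Tbx19, known as an activator of Pomc in the pituitary, had 0 counts in back, 758, 369 and 606 normalised counts in knockout tail and 0, 334 and 0 in control tail. Every knockout tail library lay above every back and every control tail library. The back mean was at least 179-fold lower than that of knockout tail and at least 34.5-fold lower than that of control tail, where 1 library gave the whole value. The log2 difference of -1.99 (SE 0.45) in back against knockout tail had a limma adjusted p of 0.094. Meis2 and Tbx19 were the 2 members with every back library below every knockout tail library, beside 10.4% of all genes. Hoxb2 and Pbx2 were the 2 with every back library above every knockout tail library, beside 4.55% of all genes, and also above every control tail library, beside 7.41%.

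Within tail epidermis, no member passed the test between knockout and control. Of the 29 members 0 passed in limma, while 10 of 16299 genes, or 0.0614%, did (0.0429% higher and 0.0184% lower). At an unadjusted p under 0.05 there were 3 members, Hoxa7, Tbx3 and Tbx19, beside 5.7% of all genes, and limma-voom on the recovered counts called 0 members and 0 genes. Hoxa7 differed by -1.35 (SE 0.37, limma adjusted p 0.44), Tbx3 by -0.68 (SE 0.29, limma adjusted p 0.87) and Tbx19 by 1.45 (SE 0.48, limma adjusted p 0.60). Tbx19 was the only member with every knockout tail library above every control library, beside 9.7% of all genes. Hoxb2, Irx2 and Irx3 had every knockout tail library below every control library, beside 9.31%. The log2 difference of Hoxb2 was -0.68 (SE 0.30, limma adjusted p 0.90) and that of Meis2 was 0.15 (SE 0.40, limma adjusted p 1). The median difference was -0.24 over the 29 members and -0.49 over the 12 Hox genes, where that of all genes was -0.07.

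Among further genes of axial patterning, the homeobox gene Prrx1 had a pattern like that of Meis2. Prrx1 encodes a factor of limb and facial mesenchyme and was the only one of 11 measured genes in a list of other homeobox genes that passed. It had 12, 4 and 0 counts in back, 1318, 2292 and 1453 in knockout tail and 1582, 1318 and 2478 in control tail. Its log2 difference was -2.81 (SE 0.38) in back against knockout tail with a limma adjusted p of 0.033, and -2.71 against control tail with a limma adjusted p of 0.025. Prrx1 is known as a mesenchymal gene, so fibroblast markers are given beside it and Meis2. Of 8 listed fibroblast markers 4 were measured, and their summed level per kilobase was 57.3 to 322 in back, 145 to 322 in knockout tail and 104 to 264 in control tail. None of the 4 was at 0 in every library of a group. Col1a2, a fibrillar collagen gene, had 45, 38 and 976 counts in back, 1658, 1826 and 2173 in knockout tail and 658, 893 and 814 in control tail, and it fell by 1.59 on the log2 scale in back against the mean of both tail groups (limma adjusted p 0.046). The other 3 markers did not pass: in back against knockout tail the log2 difference was -0.14 for Col1a1, 0.05 for Col3a1 and 0.83 for Dcn. The part of fibroblast transcripts in the Meis2 and Prrx1 differences was not tested.

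Retinoic acid, a vitamin A derivative, activates Hox genes in the embryo, and 11 of 18 listed genes of its pathway were measured. None passed in back against knockout tail, where 7 of 11 differences were positive and their median was 0.14. Against control tail 2 were higher and none lower. Rarb, a retinoic acid receptor gene, had 9834, 8184 and 6625 counts in back, 4616, 5267 and 3823 in knockout tail and 5181, 3204 and 3735 in control tail. The back libraries of Rarb did not overlap the tail libraries, and its log2 difference against control tail was 1.40 with a limma adjusted p of 0.044. Rxra, its dimer partner, had 4732, 3186 and 1121 counts in back, 2397, 2179 and 474 in knockout tail and 1083, 1208 and 1128 in control tail, with a log2 difference of 1.75 and a limma adjusted p of 0.048 against control tail. Dhrs3, which turns retinaldehyde back to retinol, had 3083, 6321 and 3371 counts in back, 1350, 133 and 594 in knockout tail and 817, 557 and 147 in control tail. It was higher in back against the mean of both tail groups, with a limma adjusted p of 0.042, and missed the threshold against each tail group alone, with limma adjusted p of 0.11 against knockout tail and 0.060 against control tail.

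Polycomb and Trithorax proteins hold Hox genes silent or active, and all 28 listed genes were measured. None passed in back against either tail group alone, and their median difference was -0.36 against knockout tail and -0.39 against control tail. The Polycomb gene Phc1, with 0, 0 and 19 counts in back, 157, 473 and 416 in knockout tail and 721, 139 and 733 in control tail, fell by 1.54 on the log2 scale against the mean of both tail groups (limma adjusted p 0.045). None of 8 measured axial regulators, 4 measured TALE partners and 5 measured noncoding or predicted genes of the Hox clusters passed in any comparison. Between knockout and control tail none of these list genes passed in limma.

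On the deposited scale the Meis2 difference kept its size across settings, while its call did not always hold. On scales that compress low counts less, the Meis2 difference in back against knockout tail was larger. It was -9.80 with limma-voom and -9.52 on log2 of the normalised count plus 1, and that of Hoxb2 was 8.24 and 7.97. Libraries at 0 counts take their value from the constant added before the log, so these sizes depend on that constant. Leaving out 1 library at a time gave Meis2 log2 differences of -3.27 to -2.88 in back against knockout tail. The adjusted p of that comparison was 0.22 without the first and second back libraries, the sparsest 2, and 0.076 to 0.084 without any 1 of the control libraries. Without the first or the second knockout tail library it was 0.17 and 0.16, and without back library 1 it was 0.050. The Meis2 call against control tail was lost as well, with an adjusted p of 0.077 to 0.083 without any 1 of the control libraries, 0.075 with array weights and 0.26 without the first and second back libraries. For Hoxb2 back against knockout tail gave 1.84 to 2.31 when 1 library was left out, and 1.27 without the first and second back libraries. Its limma adjusted p was 0.062 to 0.20 without any 1 of the first or second libraries of the knockout groups or of control libraries. It was 0.058 with limma-voom, 0.074 with the set shift put back, 0.17 with array weights and 0.22 with the replicate block. Beside the reported fit, Hoxb2 passed in 8 of 20 settings. For both genes, leaving out the first and second back libraries sets back library 3 against knockout tail library 3 alone in back against knockout tail.

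**Figure D4:**
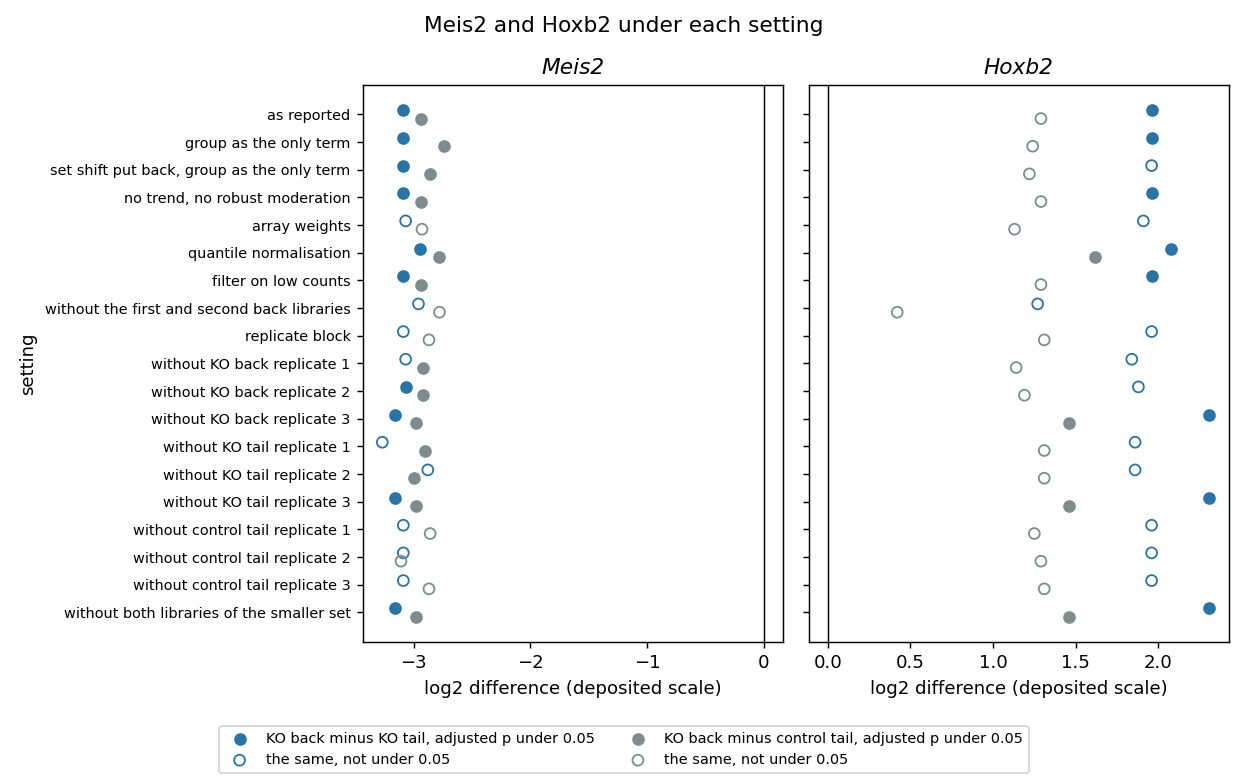
Log2 difference on the deposited scale of Meis2 (left) and Hoxb2 (right) in KO back minus KO tail and KO back minus control tail, under each setting that keeps the deposited scale. Filled points have an adjusted p under 0.05; Meis2 stays near -3 throughout, and Hoxb2 is lowest without the first and second back libraries.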

How the data were processed

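Sorted melanocytes were sequenced with SMART-Seq v4 libraries and paired-end reads, per the labels' protocols. The authors deposited 1 table of 16299 genes by 9 libraries on a log2 scale, and the submitters' processing notes name DESeq2 and GRCm38. The sources used here do not name the aligner, the counter or the strand setting. The deposited log2 values followed the variance-stabilising curve, with 0 counts at 7.98, after a shift between 2 sets of libraries (2 and 7) had been removed: set means matched within 7.14e-09 in every gene. The median shift was 0.45. Undoing curve and shift gave whole counts, within 0.004, for 16295 genes, and not for Dct, Ftl1, Pmel and Tyrp1. On simulated data 1500 of 1500 genes were recovered. Normalised counts are these counts divided by library size factors, and per kilobase they are divided by GENCODE vM21 exon length.

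All genes were fitted with limma 3.58.1 (R 4.3.3, mean-variance trend, robust moderation) on the deposited values with group and library set as terms, and p-values were adjusted by Benjamini-Hochberg with a threshold of 0.05. The design had been written for such log2 values. Tables were made with Python 3.11.15 and pandas 2.3.3. Alternatives were other terms, limma-voom, log2 of normalised counts plus 1, a low-count filter and leaving libraries out. The members, gene lists, marker lists and tests were chosen with earlier results of these data known. Values in every library are given for members that passed, the 3 highest per family or Hox cluster by level per kilobase, the 3 largest differences in each direction, and the other members by the same form, except that the values of 1 member are not reported here. Floors of 3 counts cover counting error only, since the labels name no molecular identifiers.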

Additional observations from a re-analysis of the deposited data

How the results depend on the processing

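The counts of all genes past the threshold in back against knockout tail, against control tail and against both tail groups were 71, 545 and 929, and in knockout against control tail 10. With array weights they were 6, 37, 16 and 130, and with the replicate block 3, 5, 8 and 0. Deviations of same-numbered libraries correlated between -0.17 and 0.08, apart from -0.70 between back library 3 and knockout tail library 3. Both belong to the smaller set, whose mean had been matched to that of the other libraries, so that value says nothing about pairing. Deviations within a group sum to 0, so the matching also bears on the other values between back and knockout tail. Pairing of these groups could not be judged from them. Values with control tail libraries, from -0.08 to 0.08, showed no pairing by replicate number, and the block called 0, 0, 0 and 0 members. Without the first and second back libraries the counts were 1, 8, 5 and 0, and without both libraries of the smaller set, a setting chosen after seeing the data, 1637, 2371, 2615 and 0. With the set shift put back they were 31, 217, 180 and 6. With group as the only term, back against knockout tail had 244, against control tail 163, and knockout against control tail 0. Limma-voom gave 202 against knockout tail, 471 against both and 0 between tail groups. Log2 of the normalised count plus 1 gave 189 against knockout tail and 0 between tail groups, and no trend or robust moderation gave 133 and 0. Leaving out back library 3 or knockout tail library 3 left the other alone in its set, so that the set term took it up. Leaving out back libraries 1 and 2 left 1 back library, assumed to vary like the other groups. Against knockout tail, that setting gives the difference between back library 3 and knockout tail library 3 alone. Leaving out 1 library gave 2 to 1642 against knockout tail, 26 to 2385 against control tail, 51 to 2623 against both and 0 to 8 between tail groups.

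Members past the threshold were 2, 1 and 2 in the 3 back comparisons. Array weights and leaving out the first and second back libraries gave 0 in each. Limma-voom gave 1 against knockout tail and 1 against both, the set shift put back gave 1 against knockout tail, and log2 plus 1 gave 2 against control tail. Quantile normalisation gave 3 against control tail and 3 against both, and leaving out the smaller set gave 4 and 4. Leaving out 1 library gave 0 to 3, 0 to 4 and 1 to 4, and between tail groups 0 to 0. The Hox share from groups 9 to 13 averaged 35.1% in back, 47.2% in knockout tail and 47.3% in control tail, and without 1 library 18.0% to 49.3%, 35.7% to 68.3% and 43.5% to 49.8%. The cause of these changes was not tested. The low-count filter removed no gene. The counting depth limits genes under 3 counts, and no group of 3 was tested for outliers.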

Other observations

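Read counts picked out other genes with a pattern like that of Meis2 or Hoxb2, under limits chosen after the values were seen. At most 20 counts in every back library and at least 1000 in every tail library were found for 9 genes. They were Arfgef3, Colq, Fam71f1, Itgb3, Meis2, Prl2c2, Prrx1, Slc2a6 and Tmem179. Itgb3, which encodes an integrin subunit, had 0 counts in each back library, 1179 to 1323 in knockout tail and 1189 to 1639 in control tail. Colq, which encodes the collagen tail of acetylcholinesterase, had 0, 4 and 11 counts in back, 1541 to 2277 in knockout tail and 1165 to 2080 in control tail. Arfgef3 had 4, 0 and 0 counts in back, 4720 to 8145 in knockout tail and 1261 to 2424 in control tail.

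In the opposite direction, 7 genes had at least 300 counts in every back library and at most 130 in every tail library. They were Apol9a, Ccl27b, Gabbr1, Gm13306, Hoxb2, Sfrp2 and Tspan18. Of these, Ccl27b, Gabbr1, Gm13306 and Hoxb2 passed in back against knockout tail. Apol9a, Sfrp2 and Tspan18 did not, with limma adjusted p of 0.1, 0.14 and 0.077. Ccl27b, a chemokine gene, had 2455, 1171 and 650 counts in back, 0, 0 and 2 in knockout tail and 0 in each control tail library; its near-identical copy Ccl27a can share its reads. Gm13306 had 2286, 1098 and 642 counts in back, 0, 0 and 12 in knockout tail and 45, 0 and 0 in control tail. Its back counts nearly repeated those of Ccl27b, and whether these genes share reads was not tested. Sfrp2, a secreted modulator of Wnt signalling, had 596, 4567 and 680 counts in back, 92, 6 and 105 in knockout tail and 81, 88 and 126 in control tail.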
